A study of Mus musculus with 12 samples.

Results

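The immunoglobulin heavy chain constant genes are the 8 genes *Ighm*, *Ighd*, *Ighg3*, *Ighg1*, *Ighg2b*, *Ighg2c*, *Ighe* and *Igha*, each of which encodes the constant region of 1 antibody class or subclass. They were found by the Ensembl identifiers of these symbols, and all 8 were present among the 55536 genes of the count table. RNA had been sequenced from splenic B cells of 3 control mice and 3 Pdap1-deficient mice (C57BL/6) after 48 h of culture. Cells of each mouse were stimulated either with LPS and IL-4 (LPS-IL-4), to induce switching to IgG1, or with LPS, BAFF and TGFβ (LPS-BAFF-TGFβ), to induce switching to IgG2b, which gave 12 libraries in 4 groups of 3. Control mice carried 1 copy of a Cre recombinase that is expressed in B cells, and Pdap1-deficient mice carried the same Cre together with floxed *Pdap1* alleles (Pdap1F/F), so the Cre was common to all groups. Every level below is in CPM, the count scaled by the TMM-adjusted library total, unless another scale is named, and a log2 fold change is called where the adjusted p of edgeR's quasi-likelihood F test over all tested genes was under 0.05.

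The constant genes lie one behind the other downstream of the assembled variable exon. A naive B cell splices its variable exon to *Ighm* or, by alternative processing of the same long transcript, to *Ighd*. In class switch recombination, the switch regions that precede *Ighm* and a downstream gene are broken and joined, and the DNA between them is lost, so that the variable exon comes to lie next to the new constant gene. Before a gene can be used in this way it is transcribed from its own I promoter, and the resulting sterile germline transcript is spliced onto the same constant exons that a switched transcript contains. IL-4 is known to induce germline transcription of *Ighg1* and *Ighe*, TGFβ that of *Ighg2b* and *Igha*, and LPS that of *Ighg3* and *Ighg2b*.

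On the GRCm38 assembly the 8 genes occupied 167901 bp of chromosome 12 and were read from the minus strand, which places *Ighm* (ENSMUSG00000076617, chr12:113418558-113422730) first and *Igha* (ENSMUSG00000095079, chr12:113254830-113260236) last. Between them came *Ighd* (chr12:113406604-113416324), *Ighg3* (chr12:113356224-113361232), *Ighg1* (chr12:113325240-113330523), *Ighg2b* (chr12:113302965-113307933), *Ighg2c* (chr12:113285325-113288932) and *Ighe* (chr12:113269260-113273248). Only 2233 bp separate *Ighm* from *Ighd*, while 45371 bp lie between *Ighd* and *Ighg3* and 25700 bp between *Ighg3* and *Ighg1*. Each later gap is shorter, from 17306 bp before *Ighg2b* to 9023 bp before *Igha*. The annotation places 5 further features, all pseudogenes, among the 8 genes, and 0 of them overlap a member. Over the 12 libraries these features held between 7 counts (Gm9136) and 2962 counts (Gm9134).

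What the counts cover decides how they can be read. Each member has 2 annotated transcripts, which share their first exon in all 8 genes, and this exon is the first constant exon (CH1). The study's own primers for germline transcripts show the boundary, since each pair joins an I exon to a constant exon. The pairs for *Ighg1* and *Ighg2b* are printed here because these are the isotypes the cultures were meant to induce.
Ighg1, I exon side: ggcccttccagatctttgag
Ighg1, constant side: ggatccagagttccaggtcact
Ighg2b, I exon side: cactgggcctttccagaacta
Ighg2b, constant side: cactgagctgctcatagtgtagagtc
The constant side primer of *Ighg1* lay in exon 1 at chr12:113330390-113330411, and that of *Ighg2b* in exon 1 at chr12:113307731-113307756, both without a mismatch. Of the 5 constant side primers 4 matched a member's transcript in full, and the fifth, for *Igha*, came within 1 mismatch. Of the 5 I exon primers 0 matched, the nearest place in the intended gene being at least 7 mismatches away. A count on a member therefore covers its constant exons only, and germline, unswitched and switched transcripts of a gene cannot be told apart.

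The 4 IgG genes are related in sequence, so their exons were compared to see whether reads could be assigned. The hinge exon, which codes for the flexible stretch between the antibody arms and the stem, is the exon compared in which 5 of the 6 pairs differ most, the exception being *Ighg2b* and *Ighg2c*, whose CH3 exons were 76.2% identical. It is printed 5′ to 3′ from the minus strand, with nothing in capitals because the exons differ in length.
Ighg3 hinge exon, chr12:113360529-113360576: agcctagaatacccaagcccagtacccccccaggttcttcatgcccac
Ighg1 hinge exon, chr12:113329844-113329882: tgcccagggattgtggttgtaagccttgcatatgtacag
Ighg2b hinge exon, chr12:113307261-113307326: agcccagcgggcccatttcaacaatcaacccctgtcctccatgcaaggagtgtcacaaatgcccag
Ighg2c hinge exon, chr12:113288263-113288325: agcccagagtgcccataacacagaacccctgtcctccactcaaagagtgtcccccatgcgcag
The hinge exons were between 39.6% (*Ighg3* and *Ighg1*) and 77.3% (*Ighg2b* and *Ighg2c*) identical. The M1 exon, which codes for most of the membrane anchor of the surface receptor, is where they differ least among the exons compared, and in the lines below capitals mark the bases that differ from *Ighg1*.
Ighg3 M1 exon, chr12:113358070-113358200: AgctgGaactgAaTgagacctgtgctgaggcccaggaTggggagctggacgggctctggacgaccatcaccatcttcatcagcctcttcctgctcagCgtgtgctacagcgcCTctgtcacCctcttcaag
Ighg1 M1 exon, chr12:113327442-113327572: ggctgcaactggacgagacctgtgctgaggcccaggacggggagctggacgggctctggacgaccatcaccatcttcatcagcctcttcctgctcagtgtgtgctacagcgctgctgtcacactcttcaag
Ighg2b M1 exon, chr12:113304909-113305039: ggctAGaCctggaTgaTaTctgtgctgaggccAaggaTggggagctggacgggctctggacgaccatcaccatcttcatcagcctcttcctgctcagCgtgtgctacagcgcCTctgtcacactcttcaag
Ighg2c M1 exon, chr12:113285912-113286042: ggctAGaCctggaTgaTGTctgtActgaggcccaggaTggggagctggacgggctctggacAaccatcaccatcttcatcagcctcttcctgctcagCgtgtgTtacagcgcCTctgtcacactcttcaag
All 4 M1 exons are 131 bases long and were between 89.3% and 96.2% identical, with 9, 11 and 14 bases of *Ighg3*, *Ighg2b* and *Ighg2c* differing from *Ighg1*. Over whole transcripts, a 50-base window of exon sequence was found in another annotated gene for 5.49% of the windows of *Ighg2c*, 4.15% of *Ighg2b*, 1.58% of *Ighg3* and 0.39% of *Ighg1*. No window of *Ighm*, *Ighd*, *Ighe* or *Igha* was shared at 50 bases, and none of any member at 100 bases. Small values of one IgG gene in cells that hold much of another, such as *Ighg2c* beside *Ighg2b*, are therefore uncertain to the extent that short reads fell in these windows.

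Libraries of LPS-IL-4 cultures held 9386667 to 15869143 counts and those of LPS-BAFF-TGFβ cultures 4579793 to 69500640, the deepest being control mouse 1 with LPS-BAFF-TGFβ. *Pdap1* was at 91.4 to 97.8 CPM in control and 23.3 to 29.9 CPM in Pdap1-deficient libraries with LPS-IL-4. With LPS-BAFF-TGFβ it was at 199, 80.3 and 100.3 CPM in control mice 1, 2 and 3, and at 22.98 to 26.5 CPM in Pdap1-deficient mice. The 7 B cell markers summed to 4859 to 5309 CPM with LPS-IL-4 and 3459 to 3822 CPM with LPS-BAFF-TGFβ. The labels also name the CH12 cell line, whereas the series' description speaks of splenocyte cultures, which is followed here. The 7 myeloid markers summed to 302 and 531 CPM in the cultures of Pdap1-deficient mouse 2 and to 5.04 to 75.1 CPM in the other 10 libraries, with *Mpo* at 0 counts in 10 of the 12. The 8 T cell markers reached their highest sums, 24.9 and 11.2 CPM, in the same mouse within each stimulation. Because RNA came from whole cultures, fewer cells of a class and less RNA per cell cannot be told apart.

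*Ighm* was the most abundant member in every library, and on group means the second place was held by the gene to which each stimulation directs switching. Levels of different genes were compared per kilobase of exon (CPM per kb). In control mice with LPS-IL-4 the means ran from 2269 for *Ighm* through 156 for *Ighg1*, 38.6 for *Ighd*, 14.1 for *Ighe* and 9.45 for *Ighg3* to 4.31 for *Ighg2c*, 3.39 for *Ighg2b* and 2.71 for *Igha*. The last 3 overlapped with their neighbours, and every earlier neighbour was separate in all 3 mice. In control mice with LPS-BAFF-TGFβ the order was *Ighm* (1420), *Ighg2b* (223), *Ighg3* (19.98), *Ighd* (17.4), *Igha* (6.44), *Ighg2c* (4.57), *Ighg1* (1.04) and *Ighe* (0.475). There, *Ighg3* and *Ighd* overlapped, as did *Igha* and *Ighg2c*.

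**Figure D1:**
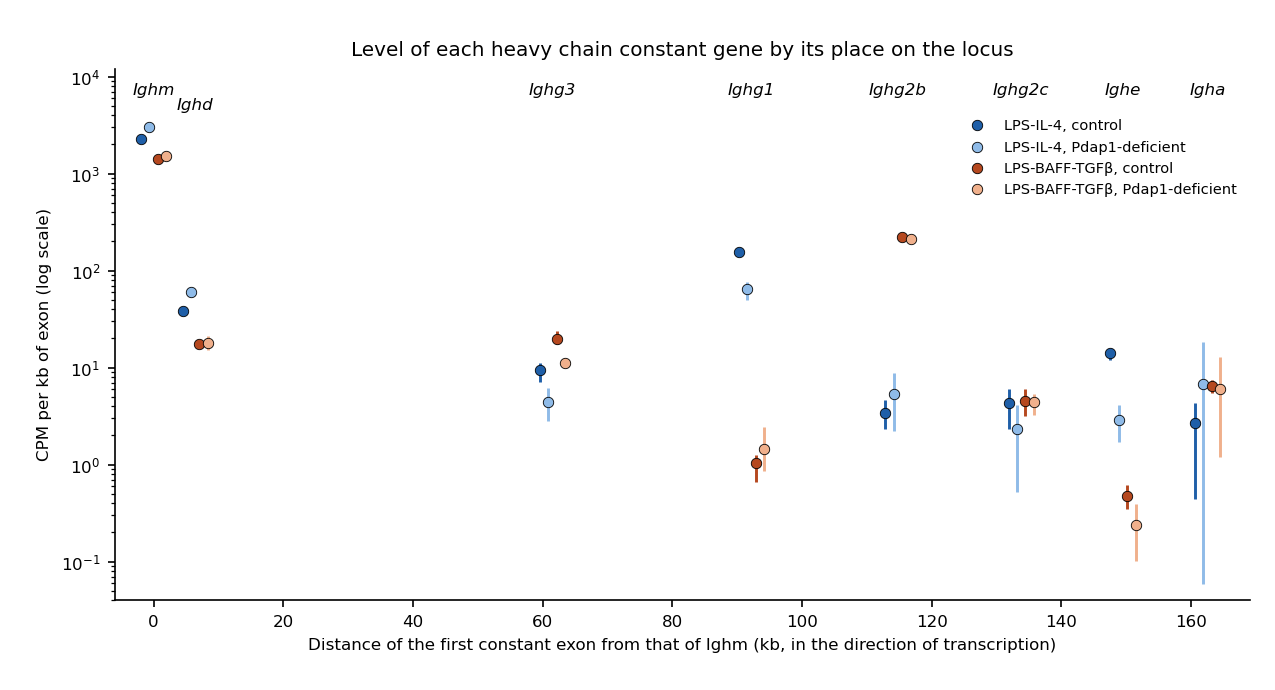
CPM per kb of exon (log scale) of each constant gene against the distance of its first constant exon from that of *Ighm* in kb; points are means of 3 mice, vertical lines run from the lowest to the highest mouse, and points are shifted sideways to separate the groups. *Ighg1*, at 92 kb, and *Ighg2b*, at 115 kb, exchange places between stimulations, and the lines of *Igha* in Pdap1-deficient mice are the longest.

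In Pdap1-deficient mice the order changed with LPS-IL-4 and hardly with LPS-BAFF-TGFβ. With LPS-IL-4 *Ighm* was at 3019 CPM per kb, and *Ighg1* (64.4) and *Ighd* (60.5) overlapped, although *Ighg1* had been clear of *Ighd* in control mice. In mouse 2 *Ighd* (58.4) stood above *Ighg1* (49.7). Below them the means of *Igha* (6.79), *Ighg2b* (5.37), *Ighg3* (4.40), *Ighe* (2.86) and *Ighg2c* (2.33) all overlapped with the next in order, with *Igha* in the fourth place that *Ighe* held in control mice. That place rested on mouse 2, since *Igha* was at 0.0583, 18.3 and 2.02 CPM per kb in mice 1, 2 and 3. Without that library, an alternative added after the data were seen, *Igha* came last (1.04), and *Ighg2b* (3.67) followed *Ighg1* and *Ighd*. With LPS-BAFF-TGFβ the order was *Ighm* (1505), *Ighg2b* (212), *Ighd* (18.1), *Ighg3* (11.1), *Igha* (5.99), *Ighg2c* (4.39), *Ighg1* (1.46) and *Ighe* (0.238), and *Ighd* and *Ighg3*, which overlapped in control mice, were now separate. Dividing by the longest transcript in place of all exons left all 8 ranks as they were in each of the 4 groups.

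As a share of all counts, the 8 genes together held 0.482% ± 0.023 (SD, n = 3) in control and 0.615% ± 0.046 in Pdap1-deficient mice with LPS-IL-4. With LPS-BAFF-TGFβ the shares were 0.333% ± 0.048 for control and 0.347% ± 0.019 for Pdap1-deficient mice. The ranges of the genotypes did not overlap with LPS-IL-4 and overlapped with LPS-BAFF-TGFβ. Within the 8 genes, *Ighm* took 88.6% ± 0.47 in control and 94.4% ± 0.61 in Pdap1-deficient mice with LPS-IL-4. The 6 genes downstream of *Ighd* took 9.66%, 10.3% and 9.55% in the 3 control mice, against 3.89%, 3.87% and 3.16% in the 3 Pdap1-deficient mice. With LPS-BAFF-TGFβ they took 19.9%, 19.1% and 20.7% in the former and 17.3%, 18.5% and 17.5% in the latter. The genotypes were thus separate in both stimulations, with means of 9.83% ± 0.40 against 3.64% ± 0.41 with LPS-IL-4 and 19.9% ± 0.83 against 17.8% ± 0.65 with LPS-BAFF-TGFβ.

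**Figure D2:**
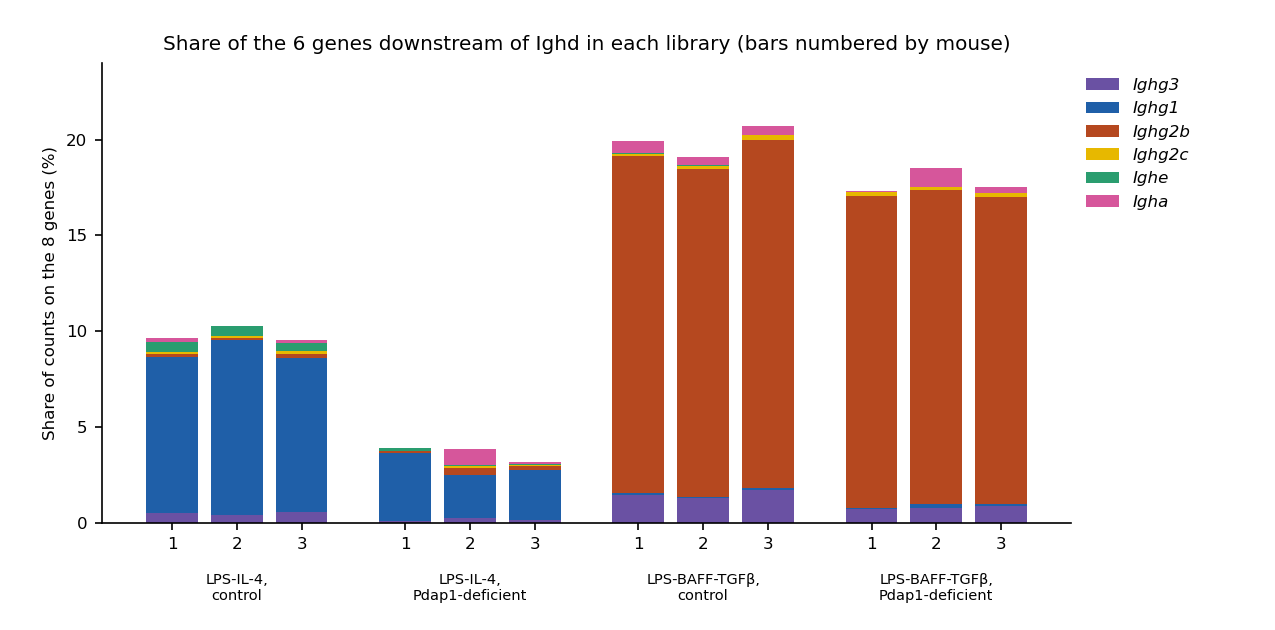
Stacked bars give the share (%) of counts on the 8 genes that fell on each of the 6 genes downstream of *Ighd*, 1 bar per library, grouped by stimulation and genotype and numbered by mouse; the remainder to 100% is *Ighm* and *Ighd*. With LPS-IL-4 the bars reach 9.55% to 10.3% in control mice and 3.16% to 3.89% in Pdap1-deficient mice, and *Igha* is widest in Pdap1-deficient mouse 2.

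The loss of Pdap1 was compared within each stimulation. With LPS-IL-4, *Ighg1* and *Ighe* were lower and *Ighd* was higher in Pdap1-deficient cells, which made 3 of 8 tested members called, 1 higher and 2 lower, where 4.92% of the 15074 tested genes were called. The ranges of the genotypes did not overlap for 5 of the 8 members, against 31.7% of all tested genes. With LPS-BAFF-TGFβ 0 of 7 tested members were called by edgeR, where 0.462% of 14079 genes were, and 1 of the 7 had ranges that did not overlap, against 18.6% of all genes. Of all genes that edgeR called there, 64 were higher and 1 was lower, against 131 and 41 with DESeq2. Lower genes were thus hardly called at all in this fit, so the absence of a call there says little about a decrease. In that comparison 1 member, *Ighg3*, had an unadjusted p under 0.05, and it was called by the Wald test of DESeq2 (adjusted p = 0.00585, beside 0.0747 in edgeR). *Ighe* did not pass the filter on low counts there.

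*Ighg1* encodes IgG1, the class that LPS-IL-4 cultures switch to. In these cultures, control mice 1, 2 and 3 stood at 395, 418 and 404 CPM and the Pdap1-deficient mice at 199.8, 129 and 172 CPM. Every Pdap1-deficient value lay below every control value, the fold change being 2.44 (log2 −1.29 ± 0.15 SE, adjusted p = 0.00211). With LPS-BAFF-TGFβ its counts were few, 193, 14 and 27 in control and 14, 31 and 23 in Pdap1-deficient mice, or 3.07, 1.70 and 3.29 CPM and 2.26, 6.40 and 2.70 CPM. These ranges overlapped (log2 0.44, 95% interval −0.54 to 1.42).

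*Ighe* encodes IgE, whose germline transcription also follows IL-4. With LPS-IL-4 it was at 23.9, 23.9 and 19.2 CPM in control libraries, on 219 to 290 counts, and at 6.54, 2.74 and 4.34 CPM in Pdap1-deficient mice, on 84, 45 and 41 counts. It was 4.97-fold lower in the latter (log2 −2.31 ± 0.28 SE, adjusted p = 0.00357), with no overlap. With LPS-BAFF-TGFβ *Ighe* had 35, 8 and 6 counts in the control libraries and 1, 3 and 3 in the Pdap1-deficient ones. The summed counts, 49 of 85627812 and 7 of 19752605, give a ratio of control to Pdap1-deficient of 1.61 with an exact 95% counting interval of 0.728 to 4.23, so a difference was not detectable at this depth. Intervals of this kind cover counting error only.

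*Ighd* encodes IgD, which naive B cells carry beside IgM. With LPS-IL-4 control mice had 70.7, 73.5 and 75.7 CPM and Pdap1-deficient mice 121, 111 and 113 CPM. The groups were well apart relative to their spread (log2 0.64 ± 0.10 SE, adjusted p = 0.00744), yet the call was lost when any 1 of the 3 control mice was left out, with edgeR adjusted p of 0.0815, 0.0792 and 0.0624 and log2 values of 0.60 to 0.65 (adjusted p over all 12 alternatives from 1.38e-05 to 0.0815). With LPS-BAFF-TGFβ it was at 33.6, 33.1 and 32.5 CPM and 40.5, 33.7 and 29.0 CPM. The Pdap1-deficient values enclosed those of control mice there (log2 0.06, 95% interval −0.27 to 0.39).

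*Ighm* encodes IgM. With LPS-IL-4 it was at 4329, 4027 and 4481 CPM in control and 5326, 5468 and 6288 CPM in Pdap1-deficient mice. The ranges did not overlap and the fold change was 1.32 (log2 0.40 ± 0.13 SE), which did not pass after adjustment in edgeR (adjusted p = 0.0938). It passed in 3 of 12 alternatives. With all libraries kept these were the DESeq2 Wald test (adjusted p = 0.016) and edgeR without the filter on low counts (adjusted p = 0.0496). The third was edgeR without Pdap1-deficient mouse 2, the mouse with the myeloid markers (adjusted p = 0.00248, and 0.00248 to 0.359 over all alternatives). With LPS-BAFF-TGFβ the levels were 2424, 2858 and 2751 CPM and 2936, 2733 and 2846 CPM. These overlapped (log2 0.09, 95% interval −0.19 to 0.37).

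*Ighg3* encodes IgG3, a class associated with responses to LPS. It was the 1 downstream member whose genotypes were apart in both stimulations. With LPS-IL-4 it was at 25.2, 17.9 and 28.1 CPM in control and 7.002, 15.4 and 10.7 CPM in Pdap1-deficient mice, and with LPS-BAFF-TGFβ at 44.3, 46.1 and 60.2 CPM and 26.1, 26.6 and 31.3 CPM. The fold changes were 2.16 and 1.77, with 95% intervals on the log2 scale of −1.73 to −0.49 and −1.18 to −0.47. Neither passed after adjustment in the edgeR fits within each stimulation (adjusted p = 0.0539 and 0.0747). Without the filter on low counts edgeR called both (adjusted p = 0.0148 and 0.00031), and with all 12 libraries in one fit it called the first (adjusted p = 0.0343, and 0.166 for the second). With LPS-IL-4 it also passed without Pdap1-deficient mouse 1 (adjusted p = 0.0371) or mouse 2 (adjusted p = 0.00481), and with LPS-BAFF-TGFβ without the deep library of control mouse 1 (adjusted p = 0.0054). Over all alternatives the adjusted p ran from 0.000848 to 0.206 and from 0.00031 to 0.371.

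*Ighg2b* encodes IgG2b, the class that LPS-BAFF-TGFβ cultures switch to. In these cultures control mice had 539.9, 612 and 639 CPM and Pdap1-deficient mice 586, 557 and 559 CPM. The values overlapped and the interval was narrow (log2 −0.07, 95% from −0.32 to 0.19). With LPS-IL-4 it was at 8.57, 6.21 and 12.4 CPM and 5.99, 23.5 and 13.6 CPM. The highest of these came from Pdap1-deficient mouse 2, and the interval was wide (log2 0.66, 95% from −0.64 to 1.95).

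*Ighg2c*, the IgG2 gene that C57BL/6 mice carry in place of Ighg2a, stayed low throughout. It was at 6.09, 3.06 and 7.97 CPM in control and 0.700, 5.41 and 3.17 CPM in Pdap1-deficient mice with LPS-IL-4, on 9 to 91 counts. With LPS-BAFF-TGFβ it was at 4.18, 6.08 and 7.92 CPM and 5.97, 4.34 and 7.15 CPM. The ranges overlapped in both stimulations (log2 −0.88, 95% interval −2.49 to 0.73, and −0.01, −0.71 to 0.69).

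*Igha* encodes IgA, the antibody of mucosal surfaces, and was the member that differed most between mice of 1 group. With LPS-IL-4 it was at 11.5, 1.17 and 9.02 CPM in the 3 control mice, and at 0.156, 48.8 and 5.39 CPM in Pdap1-deficient mice 1, 2 and 3, the lowest resting on 2 counts (exact 95% counting interval 0.0188 to 0.562 CPM) and the highest on 803. With LPS-BAFF-TGFβ it was at 20.1, 14.5 and 16.9 CPM and at 3.23, 34.5 and 10.2 CPM. Among Pdap1-deficient mice the order was the same in both stimulations, mouse 2 highest and mouse 1 lowest. The genotypes overlapped in both (log2 1.31, 95% interval −3.46 to 6.09, and −0.13, −2.30 to 2.04), and the sign with LPS-IL-4 turned to −1.52 without Pdap1-deficient mouse 2.

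**Figure D3:**
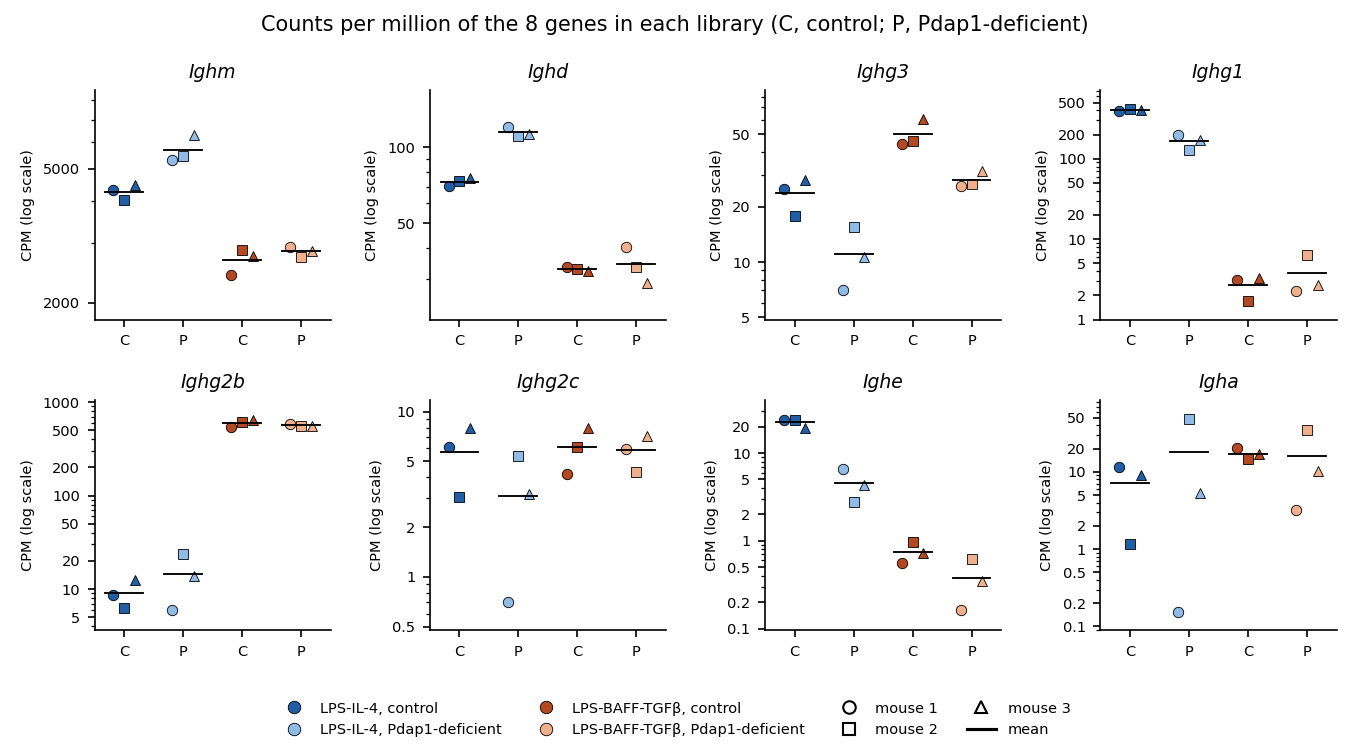
CPM (log scale, a range of its own for each gene) of the 8 genes in the 12 libraries, with control (C) and Pdap1-deficient (P) groups side by side for LPS-IL-4 (blue) and LPS-BAFF-TGFβ (orange); symbols mark the mouse and bars the mean of 3. The Pdap1-deficient points of *Ighg1* and *Ighe* lie below the control points with LPS-IL-4, and *Igha* runs from 0.156 to 48.8 CPM within 1 group.

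Each other member was also expressed per 100 counts on *Ighm*, whose own 1.32-fold difference with LPS-IL-4 enters every ratio there. *Ighg1* stood at 9.51 ± 0.75 in control and 2.95 ± 0.72 in Pdap1-deficient mice (SD, n = 3), a log2 difference of −1.71. *Ighe* stood at 0.525 ± 0.086 and 0.0806 ± 0.0377, a difference of −2.78, and *Ighg3* at 0.551 ± 0.095 and 0.195 ± 0.078, a difference of −1.56. On this scale *Ighd* no longer separated the genotypes, at 1.71 ± 0.10 and 2.03 ± 0.24. With LPS-BAFF-TGFβ *Ighg3* stood at 1.88 ± 0.29 and 0.988 ± 0.106, and *Ighg2b* at 22.3 ± 0.91 and 20.01 ± 0.37. With LPS-IL-4 the Pdap1-deficient ratios lay below all control ratios for *Ighg3*, *Ighg1* and *Ighe*, 3 of 7 members, against 48.1% of all other tested genes, so the count of members is near the background. With LPS-BAFF-TGFβ they did so for *Ighg3* and *Ighg2b*, 2 of the 6 members tested, against 13.5%. The exact two-sided permutation test of 3 mice against 3, on log2 ratios with 0.5 added to the counts, cannot give less than p = 0.1, which was its value for these 5 ratios. *Ighe* with LPS-BAFF-TGFβ, left out of that count because it did not pass the filter on low counts, also lay below all control ratios. It stood at 0.0279 ± 0.0057 in control and 0.0135 ± 0.0086 in Pdap1-deficient mice, the latter on 1 to 3 counts per library (permutation p = 0.2).

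The stimulations were then compared within each genotype. In control mice 6 of 8 members were called, 2 higher with LPS-BAFF-TGFβ (*Ighg2b* and *Ighg3*) and 4 lower (*Ighm*, *Ighd*, *Ighg1* and *Ighe*), where 19.3% of 14882 tested genes were called. In Pdap1-deficient mice the same 6 were called in the same directions, where 11.5% of 14617 genes were. With the mouse as a block, 3854 in place of 1675 genes were called in Pdap1-deficient mice and the 6 members remained called. *Ighg3* in Pdap1-deficient mice lost its call without the LPS-IL-4 culture of mouse 3 (adjusted p = 0.0664).

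The 2 classes that the cultures were meant to induce moved furthest. In control mice *Ighg1* was 145-fold lower under LPS-BAFF-TGFβ than under LPS-IL-4 (log2 −7.18 ± 0.20 SE, adjusted p = 9.23e-07) and 46.2-fold lower in Pdap1-deficient mice (log2 −5.53 ± 0.39, adjusted p = 0.000323). *Ighg2b* was 65.9-fold higher in control mice (log2 6.04 ± 0.26, adjusted p = 6.27e-06) and 39.0-fold higher in Pdap1-deficient mice (log2 5.29 ± 0.55, adjusted p = 0.00536). *Ighe* was 32.9-fold lower in control mice (log2 −5.04 ± 0.25, adjusted p = 6.41e-06). For Pdap1-deficient mice, with 1 to 3 counts of *Ighe* per LPS-BAFF-TGFβ library, the summed counts of 170 and 7 give a ratio of 12.7 with an exact 95% counting interval of 6.01 to 31.97. Without both cultures of Pdap1-deficient mouse 2, an alternative also added after the data were seen, the log2 values in Pdap1-deficient mice were −6.21 for *Ighg1*, 5.90 for *Ighg2b* and −4.27 in place of −3.60 for *Ighe*. Without the LPS-IL-4 culture of that mouse alone *Ighg2b* was at 5.88, and each of these calls was kept. The unswitched classes moved less: *Ighm* was 1.60-fold lower in control and 2.004-fold lower in Pdap1-deficient mice, and *Ighd* 2.21-fold and 3.35-fold. *Ighg3* was 2.11-fold and 2.53-fold higher.

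**Figure D4:**
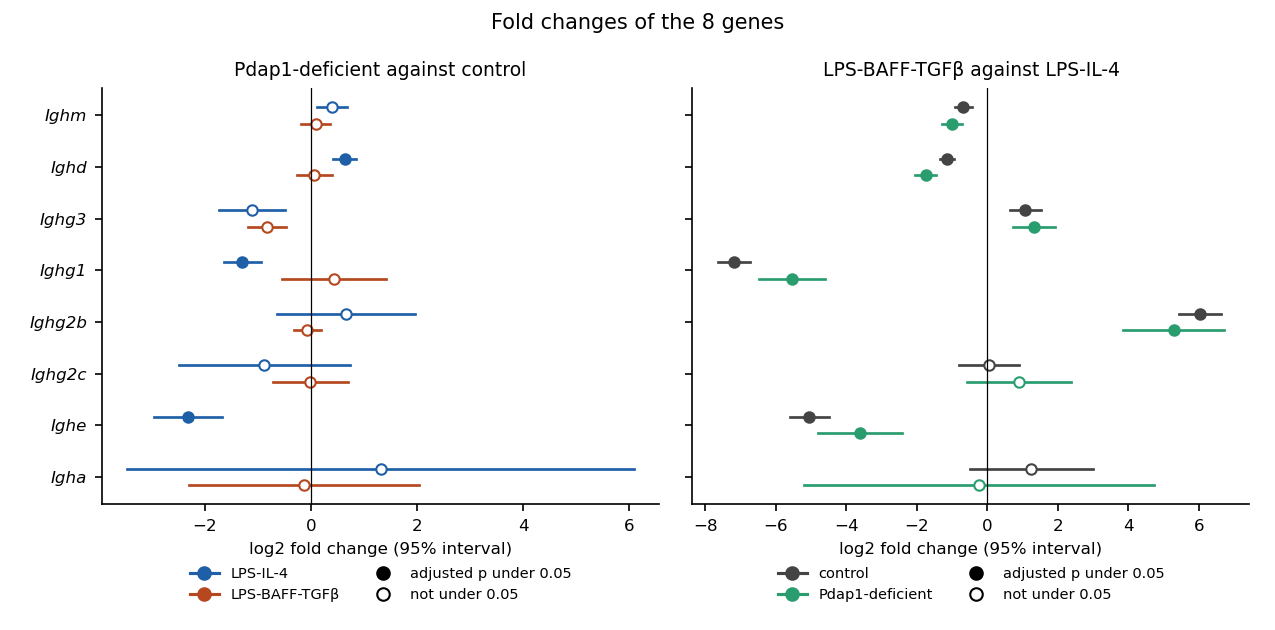
Log2 fold change with 95% interval of each gene, left for Pdap1-deficient against control within each stimulation and right for LPS-BAFF-TGFβ against LPS-IL-4 within each genotype; filled points have an adjusted p under 0.05 in edgeR, and *Ighe* with LPS-BAFF-TGFβ was not tested on the left. The filled points on the left are *Ighd*, *Ighg1* and *Ighe* with LPS-IL-4, and the longest intervals are those of *Igha*.

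Since each mouse gave both cultures by the series' description, the stimulations could also be compared mouse by mouse over all 6 animals. On the log2 CPM scale (prior count 2) *Ighg1* differed by −7.83 to −6.88 in the control mice, and by −6.38, −4.30 and −5.92 in the 3 Pdap1-deficient mice. *Ighg2b* differed by 5.67 to 6.59 in the former and by 6.58, 4.56 and 5.34 in the latter. In both genes Pdap1-deficient mouse 2 had the smallest difference of the 6. *Ighm*, *Ighd*, *Ighg1* and *Ighe* were lower with LPS-BAFF-TGFβ in 6 of 6 mice, and *Ighg3* and *Ighg2b* were higher in 6 of 6. For each of these 6 genes the exact sign-flip permutation test (two-sided, unadjusted, 8 genes tested) gave p = 0.03125, the smallest it allows with 6 mice. *Ighg2c* was higher in 3 and lower in 3 mice (mean 0.69 ± 1.26 SD, exact p = 0.25).

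*Igha* was higher with LPS-BAFF-TGFβ in 5 of 6 mice (mean 1.52 ± 1.62 SD, exact p = 0.0625). The exception was Pdap1-deficient mouse 2, at −0.50, the mouse with the highest *Igha* in either culture. In the remaining mice the difference ran from 0.80 to 3.51. The within-genotype fits did not call *Igha* (adjusted p = 0.294 in control and 0.962 in Pdap1-deficient mice), although its 3 control values with LPS-BAFF-TGFβ all lay above those with LPS-IL-4.

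A genotype by stimulation term, fitted to the 12 libraries, asked whether Pdap1 loss had another effect in one culture than in the other. Here 0 of 8 members were called, as were 0% of the 15794 tested genes. An unadjusted p under 0.05 was found for 755 genes, which is no more than chance alone would give at that threshold. *Ighg1* had the largest estimate with an interval clear of 0 (log2 1.64, 95% interval 0.68 to 2.59, unadjusted p = 0.00304, adjusted p = 0.98 in edgeR), and *Ighd* the other (log2 −0.60, interval −0.94 to −0.25, unadjusted p = 0.00237). The DESeq2 Wald test called *Ighg1* (adjusted p = 0.0386) among 6 genes, and over all 18 alternatives its adjusted p ran from 0.0386 to 1. The estimate was 1.13 without the LPS-BAFF-TGFβ culture of Pdap1-deficient mouse 2 and 0.96 without both its cultures. For *Ighg3*, with log2 values of −1.11 and −0.83 for genotype that were not called, the term was 0.26 with an interval of −0.50 to 1.02.

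Genes that serve these loci were counted from 3 lists of textbook genes. Of 36 genes of germline transcription and switching, 3 were lower and 0 higher in Pdap1-deficient cells with LPS-IL-4, where 4.92% of all tested genes were called. Among them were *Batf*, an AP-1 family factor needed for class switching (log2 −0.94, adjusted p = 0.00875), and *Apex1*, an endonuclease of base excision repair (log2 −0.92, adjusted p = 0.0359). The median over the 36 was 0.01 on the log2 scale, beside 0.02 over all tested genes. With LPS-BAFF-TGFβ 0 of the 35 tested were called by edgeR (0.462% of all genes, 64 of them higher and 1 lower). Between stimulations 14 were higher and 7 lower with LPS-BAFF-TGFβ in control mice (19.3% of all genes called), and 8 and 6 of 36 in Pdap1-deficient mice (11.5%). The lower ones were led by *Nfil3*, a transcription factor that responds to IL-4 (log2 −4.72 and −3.79), and *Il4ra*, the IL-4 receptor chain (764 against 76.3 CPM in control mice, log2 −3.32). *Tgfbr2*, a receptor of TGFβ, was higher in control mice (log2 1.34) and *Tgfbr1*, its partner chain, in Pdap1-deficient mice (log2 1.12). *Nfkb1* in control (log2 −1.42) and *Smad3* in Pdap1-deficient mice (log2 −1.35) completed the 4 smallest adjusted p of each comparison.

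Among 11 partners and receptors of immunoglobulin chains, 1 of 10 tested was lower with LPS-IL-4 in Pdap1-deficient cells and 0 were higher, beside 4.92% of all genes called. This was *Fcer2a*, the low-affinity IgE receptor CD23 (406 ± 26 against 216 ± 19 CPM, log2 −0.92, adjusted p = 0.00214). With LPS-BAFF-TGFβ 0 of 11 were called, and their median was −0.38 on the log2 scale beside 0.01 over all tested genes. Between stimulations 4 were higher and 3 lower in control mice (19.3% of all genes called), and 0 and 3 of 10 in Pdap1-deficient mice (11.5%). *Cd79b*, the signalling chain that carries surface immunoglobulin, was lower with LPS-BAFF-TGFβ in both (log2 −1.24 and −1.37), as was *Fcer2a* (log2 −1.48 and −1.08). *Fcmr*, the IgM receptor, was higher in control mice (log2 1.26), and *Jchain*, which joins IgM and IgA into polymers, was lower in them (log2 −1.66, adjusted p = 0.0285). *Igkc*, the kappa light chain constant gene, was lower in Pdap1-deficient mice (log2 −0.72).

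Among 12 genes of antibody secretion, of which *Jchain* and *Mzb1* are also in the list of partners, 3 were higher and 0 lower with LPS-IL-4 in Pdap1-deficient cells: *Prdm1*, which encodes Blimp1 (17.4 ± 3.0 against 62.3 ± 10.6 CPM, log2 1.82, adjusted p = 0.000323), *Ell2*, an elongation factor that favours secretory processing of heavy chain transcripts (log2 0.48, adjusted p = 0.0208), and *Tent5c*, a poly(A) polymerase (log2 0.82, adjusted p = 0.047). *Irf4* stood in both this list and that of germline transcription and switching. The median of the 12 genes was 0.21 beside 0.02 over all tested genes, of which 4.92% were called. The list of partners had the same median there, 0.21, with 0 genes called higher. With LPS-BAFF-TGFβ 0 of 12 were called. Between stimulations 1 was higher and 6 lower in control mice (19.3% of all genes called), and 0 and 7 in Pdap1-deficient mice (11.5%), with *Xbp1* (log2 −1.56 and −1.60), *Hsp90b1* (log2 −0.83 and −1.09) and *Creld2* (log2 −0.83 and −0.85) lower in both. *Sdc1* (log2 −2.02) was among the leading genes in control and *Prdm1* (log2 −2.68) in Pdap1-deficient mice. For the genotype by stimulation term 0 genes of any of the 3 lists were called by edgeR.

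The genes whose log2 CPM over the 12 libraries followed each member most closely were searched among 15621 genes, leaving out members and variable segments. For *Ighg1* they were *Il4ra* (r = 0.992), *Nrros* (0.991) and *Efl1* (0.990), and for *Ighe* *Tagap* (0.987), *Lig3* (0.984) and *P4hb* (0.981). For *Ighg2b* they were *Dapk2* (0.997), *Csgalnact1* (0.996) and *Blk* (0.996), and for *Ighg3* *D5Ertd605e* (0.962), *Rnpep* (0.930) and *Steap3* (0.926). For *Ighm* they were *Spty2d1* (0.990), *Serinc3* (0.980) and *Lmbrd1* (0.978), and for *Ighd* *Hmces* (0.982), *Ikzf1* (0.981) and *Dclk2* (0.978). Once the mean of each group was subtracted from its libraries, the values for these 6 members fell to between 0.157 (*Dclk2*) and 0.90 (*Blk*). For *Ighg2c* they were Gm36955 (0.919), Gm49197 (0.821) and *Smarcc1* (0.816), which stood at 0.905, 0.787 and 0.70 on these deviations.

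The genes nearest to *Igha* were *Txk* (r = 0.941), *Lat* (0.890) and *Ifi211* (0.887), and of these *Txk*, a kinase, and *Lat*, an adaptor, are genes of T cell signalling. On the same deviations these 3 genes stood at 0.957, 0.884 and 0.945. *Jchain* stood at r = 0.365 against *Igha* over the 12 libraries. On these deviations it stood at 0.863, and at 0.841 over the 10 libraries without Pdap1-deficient mouse 2. In that mouse *Jchain* was at 47.6 CPM with LPS-IL-4 and 19.4 CPM with LPS-BAFF-TGFβ, and it was at 1.29 to 24.4 CPM in the other 10 libraries. Its lowest value within each genotype and stimulation came from the mouse with the lowest *Igha*. The myeloid and T cell markers were highest in the same mouse, with all 8 T cell markers and all myeloid markers but *Mpo* detected in both its cultures, and their part in the *Igha* values was not tested.

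**Figure D5:**
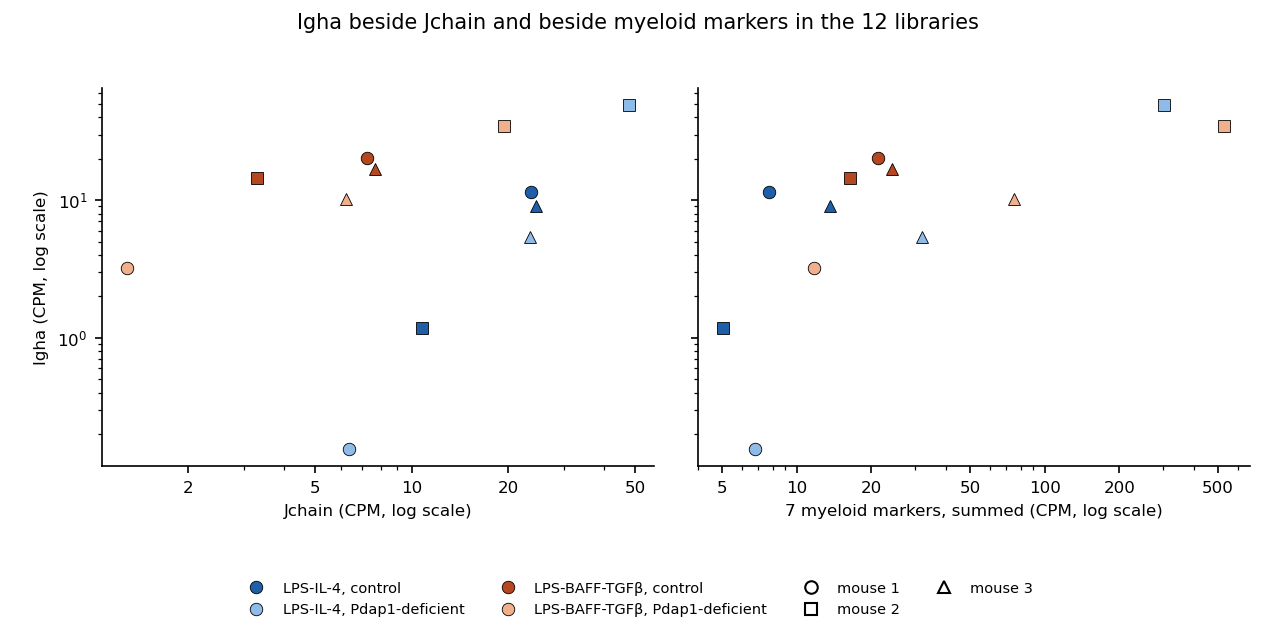
*Igha* (CPM, log scale) in the 12 libraries against *Jchain* (left) and against the summed CPM of 7 myeloid markers (right), both on log scales; colours mark stimulation and genotype and symbols the mouse. Both cultures of Pdap1-deficient mouse 2 (light squares) lie at the upper right of each panel, at 48.8 and 34.5 CPM of *Igha*.

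*Igha* was not alone in this. On deviations from the group means, *Ighg3*, *Ighg2b*, *Ighg2c* and *Igha* moved together between mice, with r between 0.784 (*Ighg2c* and *Igha*) and 0.955 (*Ighg3* and *Ighg2c*) over 12 libraries, and between 0.836 and 0.952 over the 10 libraries without Pdap1-deficient mouse 2. *Ighg1* and *Ighe* did not follow this group, *Ighe* standing at −0.305 to −0.612 and *Ighg1* at −0.413 to 0.024 against its members. These are descriptions over libraries that share mice, scaling and, for the IgG genes, short stretches of sequence, and the log2 values of low genes are the least certain. The NK cell markers summed to at most 2.28 CPM in any library, the erythroid markers to between 8.004 and 23.6 CPM, and the plasmablast markers to 343 to 500.3 CPM with LPS-IL-4 and 122 to 158 CPM with LPS-BAFF-TGFβ. The plasmablast sums of Pdap1-deficient mice with LPS-IL-4, from 395 CPM, lay above those of control mice, up to 384 CPM. With LPS-IL-4 *Ighm* and *Ighd* were also at greater values in every Pdap1-deficient than in every control library. In Pdap1-deficient mice 1, 2 and 3 with LPS-IL-4 the plasmablast sums were 395, 430 and 500.3 CPM. *Ighm* stood at 5326, 5468 and 6288 CPM in these libraries, and *Ighd* at 121, 111 and 113 CPM. The part of plasmablasts in the values of *Ighm* or *Ighd* was not tested.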

How the data were processed

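The members and lists were chosen with earlier results of these data known. The authors deposited raw counts per Ensembl gene for 12 libraries, for which the submitters' processing notes name Trim Galore 0.6.1, STAR 2.6, HTSeq 0.9.1 and DESeq2 on GRCm38, and a second table with a normalized signal, which as deposited is the count divided by 1 factor per library and was not used in tests. The release of the annotation and the strand setting of the counting are not given in the sources used here. The labels name an mRNA kit and the CH12 line where the paper's methods describe ribosome-depleted total RNA of splenic B cells (CD43-depleted); these methods were followed. Groups came from the labels and mouse numbers from the series' description. Total counts are given in the report. None of the 12 pairs of libraries within a group agreed within sampling noise, and 0 columns of samples were left unused.

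Symbols, positions and exons were taken from GENCODE M21 (GRCm38), which named all 55536 features; printed primers are the study's own. Counts were tested with edgeR 4.0.16 in R 4.3.3 (filterByExpr, TMM, robust quasi-likelihood F test, Benjamini-Hochberg threshold 0.05) within each stimulation, within each genotype, and over all libraries for the genotype by stimulation term. Replicates are mice. Exact permutation tests of single values used scipy 1.17.1. Alternatives were the DESeq2 1.42.0 Wald test, DESeq2 size factors, scaling without immunoglobulin genes, no filter on low counts, a replicate block, all 12 libraries in one fit, each library left out in turn, a prior count of 0.5 in place of 2, and, added after seeing the data, leaving out both cultures of Pdap1-deficient mouse 2 and correlating deviations from group means. The steps were tested on simulated data.

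Cultures with one number within a genotype come from the same mouse, by the series' description. The correlation of their deviations from the group means over genes was −0.181, 0.341 and −0.023 for the 3 control mice. For the Pdap1-deficient mice it was 0.579, 0.622 and 0.293. For control mice 1 and 3 the culture of the same number was not the best match. It was the best match for control mouse 2 and for each Pdap1-deficient mouse. Named genes were the 8 members, *Pdap1*, up to 4 called genes of each list and comparison with the smallest adjusted p, the 3 genes most correlated with each member, and features that overlap a member. The lists were germline transcription and switching, antigen receptor partners, antibody secretion and markers of B, T, NK, myeloid, erythroid and plasmablast cells. *Jchain* beside *Igha* and the features between members were named after their values were seen. One gene that falls under this rule is not reported here.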

Additional observations from a re-analysis of the deposited data

How the results depend on the processing

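The calls of *Ighg1* and *Ighe* with LPS-IL-4 and of 6 members between the stimulations in control mice held under every alternative run, and those in Pdap1-deficient mice did so except for *Ighg3* without the LPS-IL-4 culture of mouse 3. With LPS-IL-4 the members called for genotype numbered 5 in place of 3 (*Ighm* and *Ighg3* added) with DESeq2 and without a filter on low counts, 4 (*Ighg3* added) with all 12 libraries in one fit, and 2 to 5 with 1 library left out. With LPS-BAFF-TGFβ 1 member in place of 0, *Ighg3*, was called with DESeq2 and without the filter, and 0 to 1 with 1 library left out. For the genotype by stimulation term DESeq2 called 1 member, *Ighg1*. All genes called for genotype with LPS-IL-4 numbered 1217 with DESeq2, 1694 without the filter and 69 to 1759 with 1 library left out, against 741, and with LPS-BAFF-TGFβ 172, 257 and 19 to 116, or 133 with all 12 libraries in one fit, against 65. Between stimulations they numbered 1608 to 4858 in control and 908 to 2235 in Pdap1-deficient mice with 1 library left out. The causes of these differences were not tested.

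With the replicate block, 3 members were called for genotype with LPS-IL-4, 0 with LPS-BAFF-TGFβ and 6 between stimulations in each genotype and 0 for the genotype by stimulation term, as without it; mice of different genotypes share only a number (correlation of deviations −0.205 to 0.103), and 641 and 48 genes were then called for genotype. For the stimulation comparison in control mice 1989 genes were called with the block.

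Directions that turned were all of values not called. *Igha* turned to −0.10 for genotype with LPS-IL-4 and to 0.24 between stimulations in Pdap1-deficient mice with the replicate block, and to 1.398 there and 0.14 for the genotype by stimulation term without both cultures of Pdap1-deficient mouse 2. *Ighd* turned to −0.0032 for genotype with LPS-BAFF-TGFβ without the filter. With 1 library left out, *Igha* ran from −1.52 to 1.89 for genotype with LPS-IL-4 (lowest without Pdap1-deficient mouse 2), from −1.35 to 0.36 with LPS-BAFF-TGFβ, from −1.42 to 2.57 between stimulations in Pdap1-deficient mice and from −2.67 to 1.32 for the genotype by stimulation term. For genotype with LPS-BAFF-TGFβ *Ighd* ran from −0.074 to 0.17, *Ighg1* from −0.14 to 0.70 and *Ighg2c* from −0.25 to 0.22, and *Ighg2c* ran from −0.25 to 0.36 between stimulations in control mice. Shares kept their values within 1 SD and the 8 sign-flip tests their side of the threshold under each alternative run, but without Pdap1-deficient mouse 2 the share of *Igha* with LPS-IL-4 went from 0.309% to 0.0422% and that of *Ighg2b* from 0.239% to 0.156%. The order of the genes was kept with another transcript length. With 1 library left out it changed in Pdap1-deficient mice, with LPS-IL-4 without mouse 1 (*Ighd* before *Ighg1*, *Ighg2c* before *Ighe*) or mouse 2 (*Igha* last), and with LPS-BAFF-TGFβ without mouse 2 (*Ighg2c* before *Igha*). Depth limits *Ighe* with LPS-BAFF-TGFβ and *Ighg2c* and *Igha* in single libraries.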
